A study of Homo sapiens with 4 samples.

Results

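The response to PMA and ionomycin of Jurkat cells with an RNA hairpin directed at IKKε, called the shIKKE line, is described here as the difference between 2 arrays, the stimulated one over the solvent one. Its members are all probe sets that carry 1 gene symbol in the platform annotation. These are 41091 of the 54675 probe sets on the array, and they stand for 19775 genes. Of these, 26218 probe sets of 13717 genes reached a signal of 56.4, the median of all signals, on at least 1 of the 4 arrays of the series and were analysed further.

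Jurkat is an established human T cell leukaemia line. The series holds 4 arrays, 1 each for a control line and the shIKKE line, given either solvent or the stimulating pair of agents, all at 3 h. PMA was at 10 ng/ml, and ionomycin was at 0.5 uM. Every sample is thus a Jurkat line with a construct, and the control construct is named as a vector by the titles and as a control hairpin by the design text. The hairpin sequence, the promoter that drives it and whether either line is 1 clone are not stated in the labels. Each group being 1 array, no difference below has a replicate check, no p-value is given, and "higher" or "lower" describes these arrays only. In bulk RNA, fewer cells with a transcript and less of it per cell cannot be told apart.

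PMA stands in for diacylglycerol and activates protein kinase C and RasGRP, which feed the ERK and NF-κB pathways, and ionomycin lets calcium into the cell, which activates calcineurin and NFAT. Together they mimic the signals below the T cell receptor without engaging it. The first genes to respond encode transcription factors and feedback inhibitors, and cytokines and surface molecules follow. IKKε, encoded by IKBKE, is a kinase close to TBK1 with known roles in interferon and NF-κB signalling.

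IKBKE, the target of the hairpin, has 2 probe sets, which did not give the same picture. The one brighter over all 4 arrays read 340 and 520 in the control line with solvent and with stimulation, against 180 and 248 in the shIKKE line. The other read 218 and 311 in the control line, against 287 and 280 in the shIKKE line, so that with solvent it was higher there. A lower IKBKE level in the shIKKE line thus rests on 1 probe set with solvent, and the arrays do not settle the depth of the knockdown. Between the shIKKE arrays these probe sets differed by 0.43 and −0.03 on the scale of log2(signal + 14.1), which is used for every log2 difference here. TBK1 read 2216 with solvent and 2032 with stimulation in the shIKKE line. The T cell identity of the line was visible on both arrays: all 11 T cell markers with a probe set reached the limit of 56.4, and their summed signal was 77605 with solvent and 72173 with stimulation. CD3D, a chain of the T cell receptor complex, read 28210 and 26370. Summed markers of other cells went from 839 to 1029 for B cells (4 of 9 below the limit on both arrays), from 4188 to 3576 for myeloid cells (6 of 10), from 78.3 to 226 for natural killer cells (5 of 6), from 458 to 354 for erythroid cells (2 of 5) and from 680 to 853 for epithelial and fibroblast cells (9 of 11). Nearly all of the myeloid sum was AIF1, at 3945 and 3171, and without it the sum went up, from 243 to 405, with CSF1R at 7.62 and 107 and MPO at 2.45 and 49.1. Whether RNA of such cells has a part in the results was not tested. The B cell marker MS4A1 read 1.74 and 45.8, under the limit both times. The hybridization controls, 18 probe sets for RNA added at known amounts, differed by −0.19 to 0.20. The signal ratio of the 5′ to the 3′ ACTB control, a measure of RNA integrity, was 0.339 with solvent and 0.266 with stimulation, and the GAPDH ratio was 1.04 and 1.17. The part of RNA integrity in the results was not tested.

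Stimulation of the shIKKE line was a response mainly of higher signals. By the brightest probe set of each gene, 1417 genes (10.3% of those past the filter) were higher by 2-fold or more and 368 (2.68%) were lower by as much, so that 79.4% of the 2-fold genes were higher. The median signal of the stimulated array was also higher, at 69.1 against 49.7, and the split depended on how this was handled: quantile normalization gave 59.6% higher and cyclic loess gave 62.1%. The lower end was short, since 330 genes (2.41%) were higher by 4-fold or more and 26 (0.19%) lower by as much. At 16-fold there were 30 higher genes and 0 lower ones.

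Much of the count came from dim probe sets. Of the higher genes, 846 reached the limit on the stimulated array but not on the solvent array, and these changes have a lower bound only. The same holds for 193 of the lower genes, which reached it on the solvent array only. Another 83 higher and 39 lower genes reached the limit on neither shIKKE array. They passed the filter through the control line, so their changes are uncertain. Among the 11170 genes at or above the limit on both shIKKE arrays, 488 (4.37%) were higher and 136 (1.22%) were lower. Across 4 equal bins of genes by mean level, from the dimmest to the brightest, the number higher went from 926 to 290, 129 and 72, and the number lower from 235 to 74, 41 and 18. The median difference went the same way, from 0.45 in the dimmest bin to −0.14 in the brightest.

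**Figure D1:**
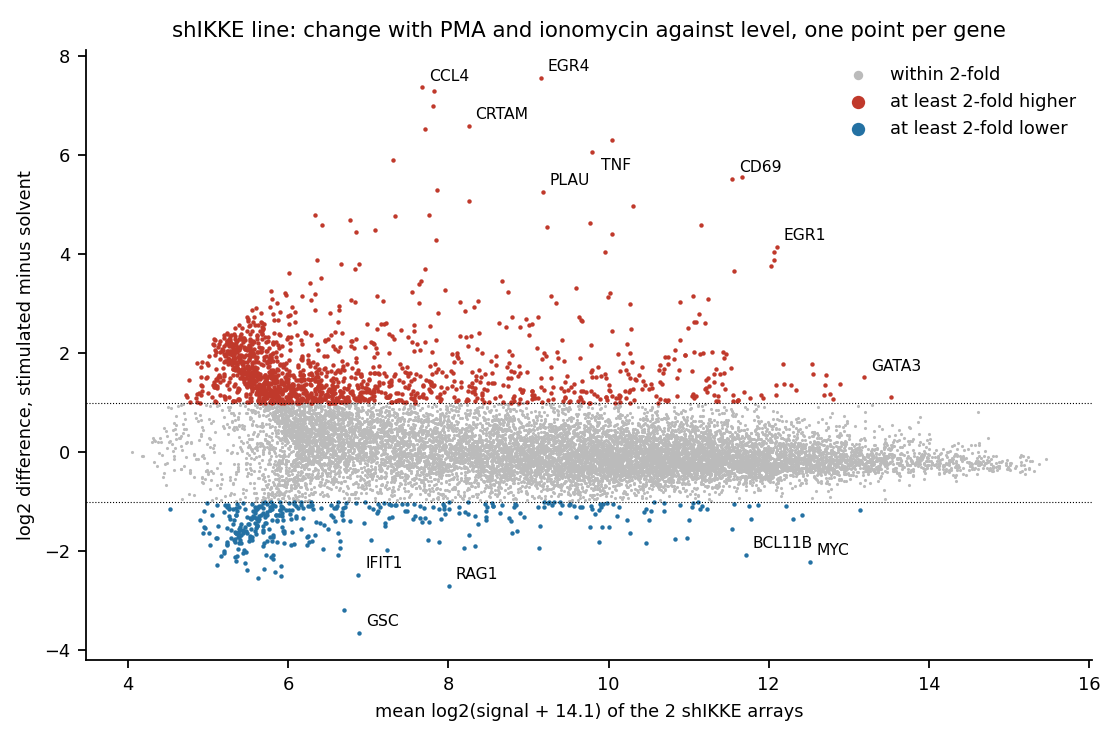
Log2 difference between the stimulated and the solvent array of the shIKKE line (vertical axis) against the mean log2(signal + 14.1) of both arrays (horizontal axis), 1 point per gene for 13717 genes, with the 1417 higher genes in red and the 368 lower genes in blue, both by 2-fold or more. Most coloured points lie at the dim end, and the bright changes include EGR1, CD69 and GATA3 above and MYC and BCL11B below.

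The largest differences belonged to early transcription factors, cytokines and activation molecules. EGR4, a zinc finger factor of the early growth response family, read 27.5 with solvent and 7756 with stimulation, a log2 difference of 7.55, and its other probe sets gave 4.91 and 1.88. With the solvent signal raised to the limit of 56.4, as is done for every "at least" fold here, it was at least 137-fold higher. CCL4, a chemokine that draws T cells and monocytes, read 1.82 and 2603, at least 46.1-fold higher. TNFSF14, the ligand LIGHT of the TNF superfamily, read 4.09 and 2807, at least 49.8-fold higher. These genes were under the limit with solvent and well above it with stimulation, as were the nuclear receptor NR4A3, the adhesion receptor CRTAM, the early gene ARC, the chemokines XCL1 and CXCL8 and the granule protease GZMB.

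Other large changes started from a measurable level. EGR3 read 104 and 9316 (6.30), TNF read 95 and 7245 (6.06) and PLAU, the urokinase that activates plasminogen, read 80.0 and 3562 (5.25). IER3, an early gene linked to cell survival, read 460 and 22170 (5.55), and CD69, an early surface marker of T cell activation, read 428 and 20140 (5.51). All of these were measured well above the limit once stimulated. DUSP5, a nuclear phosphatase of ERK, completed the 15 largest increases at 212 and 7043 (4.96).

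**Figure D2:**
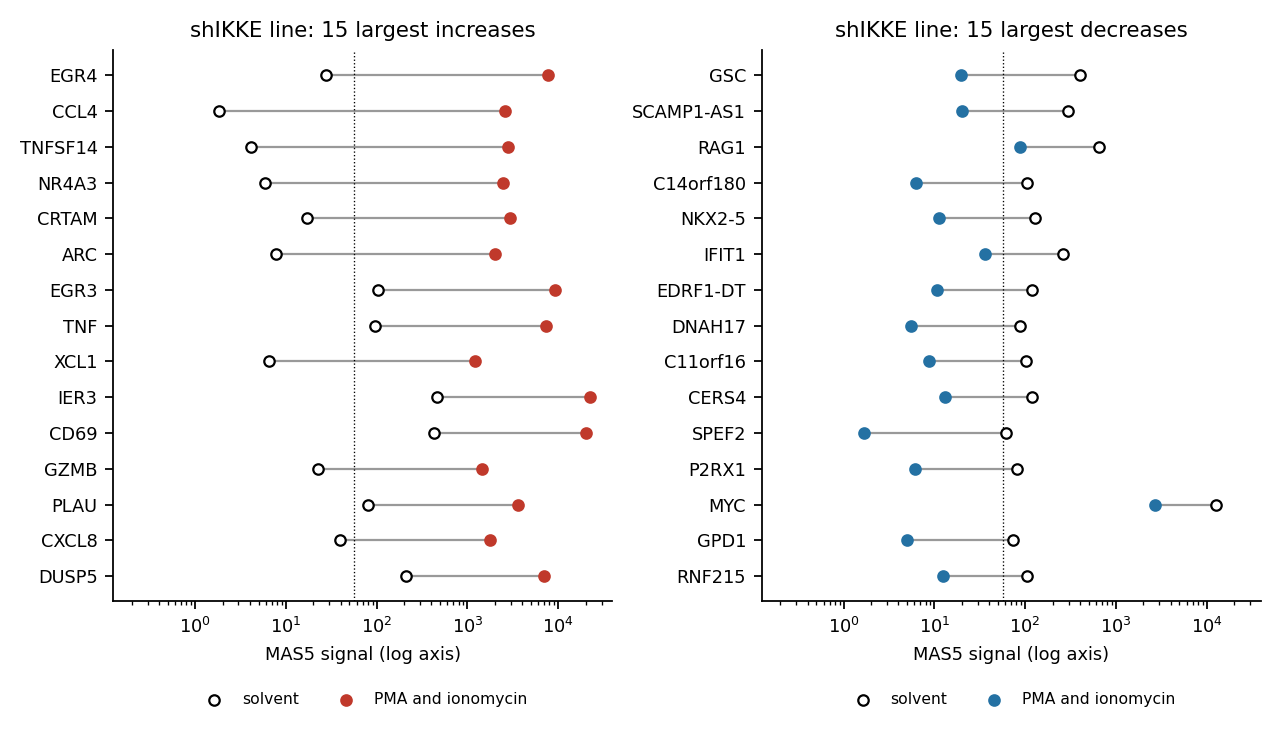
MAS5 signal on a log axis for the genes with the 15 largest increases (left, stimulated array in red) and the 15 largest decreases (right, stimulated array in blue) in the shIKKE line, with the solvent array as open points and the limit of 56.4 as a dotted line. Among the decreases, only RAG1 and MYC lay above the limit on both arrays.

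The promoters of 5 genes that were at least 8-fold higher are shown, because they carry matches to motifs of factors whose own transcripts or pathways are described here. They were chosen after their values were seen. Each line is the 250 bases before the RefSeq start of the gene, 5′ to 3′ on its own strand, in build GRCh38.p14, and capitals mark matches to the CArG box, EGR or NF-κB motifs on either strand. The regions are chr5:138465229-138465478 (plus strand) for EGR1, chr12:57088864-57089113 (plus) for NAB2, chr7:520227-520476 (minus) for PDGFA, chr14:35404750-35404999 (minus) for NFKBIA and chr2:60881324-60881573 (plus) for REL.
EGR1: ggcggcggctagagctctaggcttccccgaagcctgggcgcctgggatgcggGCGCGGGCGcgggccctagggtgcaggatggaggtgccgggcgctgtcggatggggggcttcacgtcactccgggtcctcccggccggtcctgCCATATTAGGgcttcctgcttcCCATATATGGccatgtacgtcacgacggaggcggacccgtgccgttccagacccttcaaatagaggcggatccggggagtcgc
NAB2: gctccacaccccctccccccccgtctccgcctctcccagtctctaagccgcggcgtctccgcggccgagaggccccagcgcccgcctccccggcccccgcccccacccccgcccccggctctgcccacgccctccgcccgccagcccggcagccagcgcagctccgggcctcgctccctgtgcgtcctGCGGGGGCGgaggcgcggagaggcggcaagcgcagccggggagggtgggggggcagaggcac
PDGFA: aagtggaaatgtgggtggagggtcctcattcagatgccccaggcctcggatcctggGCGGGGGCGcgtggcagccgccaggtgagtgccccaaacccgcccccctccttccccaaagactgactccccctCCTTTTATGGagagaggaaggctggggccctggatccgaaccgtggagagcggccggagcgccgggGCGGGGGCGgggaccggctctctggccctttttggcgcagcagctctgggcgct
NFKBIA: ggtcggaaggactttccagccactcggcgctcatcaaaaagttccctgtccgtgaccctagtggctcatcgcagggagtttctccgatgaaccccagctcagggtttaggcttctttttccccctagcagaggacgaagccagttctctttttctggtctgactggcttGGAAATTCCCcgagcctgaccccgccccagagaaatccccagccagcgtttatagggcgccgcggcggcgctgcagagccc
REL: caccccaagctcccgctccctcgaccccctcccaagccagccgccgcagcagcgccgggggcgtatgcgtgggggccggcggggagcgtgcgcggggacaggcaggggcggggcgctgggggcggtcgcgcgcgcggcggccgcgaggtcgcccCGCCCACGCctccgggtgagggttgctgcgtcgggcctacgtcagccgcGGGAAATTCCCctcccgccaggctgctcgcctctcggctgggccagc
EGR1 and PDGFA hold CArG boxes, the site read by serum response factor. EGR1, NAB2, PDGFA and REL hold EGR matches, and NFKBIA and REL hold NF-κB matches, which overlap each other in REL.

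These motifs were searched in the RefSeq promoters, 300 bases from 250 before to 50 after the start, of 11032 of the 13717 genes. The EGR motif was GCGNGGGCG, the AP-1 motif TGANTCA, the cyclic AMP element TGACGTCA and the NFAT core GGAAA, each on both strands, with the NFAT core also lying inside NF-κB matches. Of the 232 genes at least 4-fold higher with a promoter, 15.9% held an EGR match, 8.62% an NF-κB match and 12.1% an AP-1 match, against 15%, 6.64% and 4.78% of all 11032. At 2-fold the shares were 13.7%, 7.2% and 7.39% of the 1028 higher genes with a promoter. Of the 272 lower ones they were 16.5%, 9.19% and 6.62%, so that EGR and NF-κB matches were no less common among lower genes. The shares differed with the signal level: of the 55 genes at least 4-fold higher with both arrays past the limit, 25.5% held an EGR match, 16.4% an NF-κB match and 7.27% an AP-1 match. Over all 9172 genes with both arrays past the limit the shares were 15.7%, 6.57% and 4.09%. For the 107 of these that were at least 2-fold lower they were 18.7%, 4.67% and 3.74%, and for the 359 at least 2-fold higher 20.6%, 10.6% and 5.29%. Of EGR, NF-κB and AP-1, EGR had the largest share in the 232 and in the 55, as it had over all genes. The places of NF-κB and AP-1 changed between the 232 and the 55. The NFAT core was in 58.2% of the 55 and 58.1% of the 9172, the cyclic AMP element in 1.82% and 3.41%, and the CArG box in 3.64% and 1.05%, which is 2 promoters of the 55. Without that limit, the NFAT core was in 58.2% of the 1028, 61.2% of the 232 and 55.1% of the 272 lower genes, against 58.2% of the 11032. Of the 46 genes at least 8-fold higher with a promoter, 76.1% held the NFAT core, 23.9% an EGR match, 15.2% an NF-κB match and 13.0% an AP-1 match. The 55 and the 9172 had a median GC content of 65.3%. For the 232 it was 61.7%, against 64.7% for the 11032, and the part of GC content in the shares was not tested. In the whole table of 35116 promoters the shares were 9.43% for EGR, 5.91% for NF-κB, 7.71% for AP-1, 61.2% for the NFAT core, 1.85% for the cyclic AMP element and 1.29% for the CArG box. A match describes letters in a window and not a bound site.

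The counts for gene lists below are to be read against the 10.3% of genes past the filter that were higher and the 2.68% that were lower. With both arrays past the limit these shares are 4.37% and 1.22%. Lists counted with no filter compare with 2200 higher and 796 lower of all 19775 genes, with a median of 0.03. The list called early transcription factors had the largest number of members higher: 21 of 27, with 1 lower and 5 within 2-fold. Its median was 2.0, against −0.01 over all genes. It also holds ARC and IER3, early genes that are not transcription factors, and the corepressor NAB2, all of them among the 21. EGR1 read 1035 and 18500 (4.14), and its 3 probe sets lay between 4.04 and 4.20. NAB2, a corepressor that binds EGR factors, read 214 and 4843 (4.41). KLF10, a Krüppel-like repressor, read 1044 and 17420 (4.04). The AP-1 subunits, which pair as FOS and JUN dimers, were also higher: FOS read 45.8 and 345 (at least 6.11-fold), JUN 1404 and 5615 (1.99), JUNB 279 and 1159 (2.0) and JUND 3913 and 11510 (1.55). FOSB, named after its values were seen, read 7.39 and 302 (at least 5.36-fold). Among the NR4A receptors, NR4A3 read 5.82 and 2493, at least 44.2-fold higher. NR4A1 read 109 and 1341 (3.46), but its other probe sets gave 0.72 and 0.09, so that it was within 2-fold by their median. The lower member was MYC, which drives growth and is often placed with the early genes, at 12540 and 2702 (−2.21). SRF, the factor that reads CArG boxes, lay within 2-fold at 1255 and 936.

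Feedback inhibitors of MAP kinase and G protein signalling had 10 of 17 higher, 0 lower and a median of 1.45. Besides DUSP5, the phosphatase DUSP2 read 1108 and 16420 (3.87). SPRY4, a Sprouty inhibitor of receptor signalling to ERK, read 44.1 and 735 (at least 13.0-fold), SPRY1 read 210 and 861 (1.96) and RGS16 read 39.9 and 178 (at least 3.15-fold). The family did not move as one, since DUSP1 read 755 and 551 and DUSP7 read 828 and 937. By the median of the probe sets DUSP1 moved beyond 2-fold, and the list then had 10 higher and 1 lower.

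The calcium, calcineurin and NFAT list showed less, with 4 of 22 (18.2%) higher against 4.37% of genes with both arrays past the limit, as all 22 were, with 0 lower and a median of 0.09. The higher members were NFATC1 at 1425 and 5371 (1.90), the calcium pump ATP2B1 at 931 and 2853 (1.60), NFAT5 at 750 and 1796 (1.24) and NFATC2 at 665 and 1465 (1.12). The calcineurin inhibitor RCAN1, a known NFAT target, read 2200 and 1663 (−0.40). The calcium channel ORAI1 and its sensor STIM1 lay within 2-fold.

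Of the NF-κB subunits and their feedback genes, 11 of 27 were higher and 0 lower, with a median of 0.84. Among subunits, REL read 653 and 5411 (3.02), with 5 probe sets between 1.32 and 3.03. RELB read 47.0 and 558 (at least 9.89-fold) and NFKB1 read 996 and 3902 (1.96), while RELA read 1344 and 1330. Among inhibitors, NFKBID read 162 and 4317 (4.62) and NFKBIA, which holds NF-κB in the cytoplasm, read 817 and 7051 (3.09). The second probe set of NFKBIA was dim on both arrays, at 56.6 and 58.4. TNFAIP3, the ubiquitin editor A20, read 930 and 3444 (1.87), and TRAF1 read 67.2 and 429 (2.45). TANK, an adaptor of TBK1 and IKKε, read 938 and 2322 (1.29), and was within 2-fold by the median of its probe sets. The kinases that free NF-κB, IKBKB and CHUK, lay within 2-fold.

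Secreted factors gave some of the largest folds from the dimmest baselines. Of 22 interleukin, interferon and growth factor genes with a probe set, with no filter, 9 were higher and 2 were lower, with a median of 0.70. The 9 with both arrays past the limit held 4 higher ones and had a median of 0.25. IL2, the T cell growth factor, read 14.5 and 629, at least 11.2-fold higher, and IL3 read 1.30 and 410, at least 7.27-fold higher. IFNG, encoding interferon gamma, read 37.4 and 159 (at least 2.82-fold). PDGFA, a growth factor for mesenchymal cells, read 110 and 2883 (4.54), and its probe sets lay between 2.92 and 4.54. IL23A read 124 and 683 (2.34). VEGFB and OSM were lower and both ended under the limit, VEGFB at 156 and 29.8 and OSM at 69.6 and 13.6, which is at least 2.77-fold and 1.23-fold lower.

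Of 15 chemokines with a probe set, with no filter, 5 were higher and 0 lower, with a median of 0.76. CCL4, XCL1 and CXCL8 were under the limit with solvent in the shIKKE line, and only 2 chemokines reached it on both shIKKE arrays. XCL1, lymphotactin, read 6.52 and 1204, at least 21.3-fold higher, while its second probe set read 20.6 and 89.5 (1.58). CXCL8, interleukin 8, read 39.0 and 1764, and its probe sets gave 5.07 and 3.89. CCL1 read 96.0 and 773 (2.84) and CXCL3 read 105 and 384 (1.74). CCL5, a chemokine of later T cell activation, read 45.3 and 53.9, under the limit on both arrays.

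In the TNF superfamily 10 of the 27 with a probe set were higher and 0 lower with no filter, with a median of 0.70, and the largest differences were those of ligands. With both arrays past the limit, 6 of 18 were higher. LTA, lymphotoxin alpha, read 16.7 and 822 (at least 14.6-fold), LTB read 453 and 11130 (4.58), FASLG, the death ligand, read 26.2 and 179 (at least 3.18-fold) and CD70 read 179 and 470 (1.33). A second, dim LTB probe set read 85.2 and 98.9. Among receptors, TNFRSF1A read 912 and 3172 (1.78) and CD27 read 193 and 420 (1.07), and FAS lay within 2-fold at 767 and 962.

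Activation and checkpoint surface molecules were higher for 11 of the 29 with a probe set, with no filter, with 0 lower and a median of 0.61. With both arrays past the limit, 5 of 16 were higher. CRTAM, which binds nectin-like ligands, read 17.2 and 2965, at least 52.6-fold higher. CD83 read 1126 and 15300 (3.75), ICOS, a costimulatory receptor, read 46.4 and 356 (at least 6.31-fold) and IL21R read 76.0 and 512 (2.55). NT5E, the ecto-enzyme CD73, read 236 and 757 (1.63). The alpha chain of the interleukin 2 receptor, IL2RA, read 45.4 and 109, which is at least 1.94-fold and so loses the 2-fold call, and the beta chain, IL2RB, read 165 and 533 (1.61). CD28 lay within 2-fold at 2345 and 2264.

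Genes of cytokine signalling were higher for 5 of 17, with 0 lower: BCL6, a repressor, read 202 and 1280 (2.58, with other probe sets at 0.71 and 0.58), the kinases PIM1 and PIM3 read 138 and 522 (1.82) and 3461 and 10340 (1.58), and the inhibitors SOCS1 and SOCS4 gave 1.24 and 1.06. By the median of their probe sets BCL6 and SOCS4 were within 2-fold. Of 8 cytotoxic granule genes, GZMB read 22.8 and 1432, at least 25.4-fold higher. GZMM read 47.2 and 142, at least 2.51-fold higher, and GZMH read 111 and 20.2, at least 1.97-fold lower. Integrins, selectins and migration genes had 3 higher (12.5%) and 2 lower (8.33%) of 24, so that the share higher was near the 10.3% over all genes. PLAU and its receptor PLAUR, at 192 and 463 (1.21), were higher. The P-selectin ligand SELPLG was lower, at 2651 and 737 (−1.83). The other 2 calls rest on signals under the limit: the integrin ITGB7 read 7.66 and 105, at least 1.86-fold higher, and the lymph node homing receptor CCR7 read 47.5 and 16.1, under the limit on both arrays, so that neither is 2-fold with signals raised to the limit.

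The T cell receptor and the kinases next to it changed little: 2 of 34 were higher, 2 were lower and the median was −0.16. LCP2, the adaptor SLP-76, read 988 and 3915 (1.97) and SH2D2A read 134 and 448 (1.64). RHOH, a GTPase needed for receptor signalling, read 3339 and 976 (−1.76) and PRKCQ, the protein kinase C theta that PMA activates, read 2086 and 933 (−1.15), though within 2-fold by the median of its probe sets. LCK read 22250 and 19170 and ZAP70 read 4968 and 4206. The ubiquitous RNA decay machinery CNOT1 also lay within 2-fold, but 5 of 12 mRNA decay factors were higher and 1 was lower. ZFP36L1, which binds AU-rich elements, read 702 and 6279 (3.14) and ZFP36 read 854 and 2910 (1.75), whereas ZFP36L2 read 5072 and 1738 (−1.54), with its second probe set at −1.11. The family members thus stood on opposite sides.

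Genes of thymocyte stages included decreases at bright signals, with 4 of 24 lower, 4 higher and a median of −0.29. RAG1 and RAG2, the recombinase that cuts antigen receptor genes, read 642 and 87.1 (−2.70) and 285 and 61.6 (−1.98). BCL11B, a factor of T cell commitment, read 6891 and 1629 (−2.07), and its next brightest probe set gave −1.42. CD1D, which presents lipids, read 1610 and 558 (−1.51). The higher members were GATA3 at 5528 and 15780 (1.51) and the E protein inhibitors ID2 at 1354 and 5520 (2.02), ID1 at 686 and 2070 (1.57) and ID3 at 2006 and 4481 (1.15). DNTT, which adds bases at the joints, lay within 2-fold at 1860 and 1285. In the TAL1 and Notch list 3 of 18 were higher and 1 lower: RUNX3 read 848 and 4152 (2.27), the Notch targets NRARP and HEY1 gave 1.61 and 1.09, and MYB, a factor of blood progenitors, read 13490 and 6038 (−1.16). The second, dim MYB probe set gave −0.02, so that MYB was within 2-fold by their median, and HEY1 was within 2-fold with quantile normalization. TAL1 itself read 9133 and 5419 (−0.75).

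The remaining large decreases rested mostly on dim signals. GSC, a homeobox gene, read 404 and 19.4, at least 7.16-fold lower, and the antisense transcript SCAMP1-AS1 read 298 and 20.1 (−3.19). IFIT1, an interferon-stimulated gene, read 262 and 35.9, at least 4.65-fold lower. The decreases of GSC, SCAMP1-AS1 and IFIT1 ended under the limit of 56.4, so their size is uncertain. Among genes with every probe set at least 2-fold lower, the largest differences were those of ADAMTS1, a secreted protease, at 559 and 136 with probe sets at −1.94 and −1.92. The second of these read 85.9 and 12.4, so that it ended under the limit. Among genes bright on both arrays, VANGL1, a planar polarity protein, read 5568 and 2182 (−1.35), P2RY8 read 8004 and 3152 (−1.34) and PMEPA1 read 6919 and 3256 (−1.08). The other VANGL1 probe sets gave −1.38, −1.0 and 0.05, the last of them at 1873 and 1944. PMEPA1 was within 2-fold with quantile normalization, with cyclic loess and by the median of its probe sets. The bright chemokine receptor CXCR4 read 15430 and 8050 (−0.94), and its dimmer probe sets gave −2.20 and −2.26.

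Survival and stress genes were mixed, with 6 of 20 in the BCL2 family and death list higher and 0 lower. BCL2A1, an inhibitor of apoptosis, read 26.9 and 1120 (at least 19.8-fold) and MCL1 read 4707 and 12300 (1.38), with 6 probe sets between 1.38 and 2.66. The stress genes GADD45A and GADD45B gave 2.61 and 1.79, and the death gene PMAIP1 read 2662 and 5683 (1.09). CDKN1A, the inhibitor p21, read 101 and 935 (3.05) and was the single higher gene of 17 on the G1 list, on which E2F2 was the single lower one (−1.11). The probe sets of E2F2 did not share a direction, and their median was 0.34.

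None of 22 DNA replication genes, 24 mitosis genes, 22 ribosome biogenesis genes and 8 core histones differed by 2-fold, with medians of −0.15, −0.30, −0.07 and −0.19. The mitotic kinesin KIF20A, at 1877 and 977 (−0.93), and CDC20, at 6179 and 3322 (−0.89), came closest. The 15 housekeeping genes likewise had 0 beyond 2-fold and a median of −0.23, with ACTB at −0.40 and ALAS1 at 0.44 as the extremes. In cholesterol synthesis, HMGCS1 read 3098 and 7964 (1.36) and INSIG1 read 7999 and 17450 (1.12, though within 2-fold by the median of its probe sets), while 15 of 17 lay within 2-fold. In glycolysis the single gene of 25 beyond 2-fold by its brightest probe set was PFKFB4, at 430 and 112 (−1.82). PKM read 3682 and 5174 (0.49), but its second probe set read 210.8 and 974.5 (2.14). By the median of its probe sets (1.31) PKM was at least 2-fold higher. Of 19 ATF4 targets, DDIT3, the factor CHOP, read 437 and 2458 (2.45) and CHAC1 read 92.0 and 269 (1.42). Of 31 interferon regulatory and interferon-stimulated genes, 1 was higher (MX2, at 34.2 and 123, at least 2.19-fold) and 2 were lower (IFIT1, and IRF1 at 1512 and 728). IRF1 was within 2-fold by the median of its probe sets. Of 23 small GTPase and cytoskeleton regulators, 4 were higher, with the calcium-responsive GTPase GEM at 103 and 866 (2.92). With quantile normalization, early transcription factors had 22 members higher, MAP kinase feedback genes 10, NF-κB genes 10, chemokines 5 and surface molecules 9. In that setting 1 gene each was lower on the TNF superfamily, surface molecule, death regulator, histone, cholesterol synthesis and long noncoding lists, against 0 before. The number lower also rose for T cell receptor genes (to 3), TAL1 and Notch (2), G1 genes (2), interferon genes (4) and erythroid markers (2). No other list gained lower genes, and the histone median moved to −0.51. The 2-fold calls of IL2RA (0.69), CD27 (0.90), HEY1 (0.96) and PMEPA1 ended there. These are all those lost among the genes named here, with CSF1R, MPO, CYTOR and MIAT not counted.

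**Figure D3:**
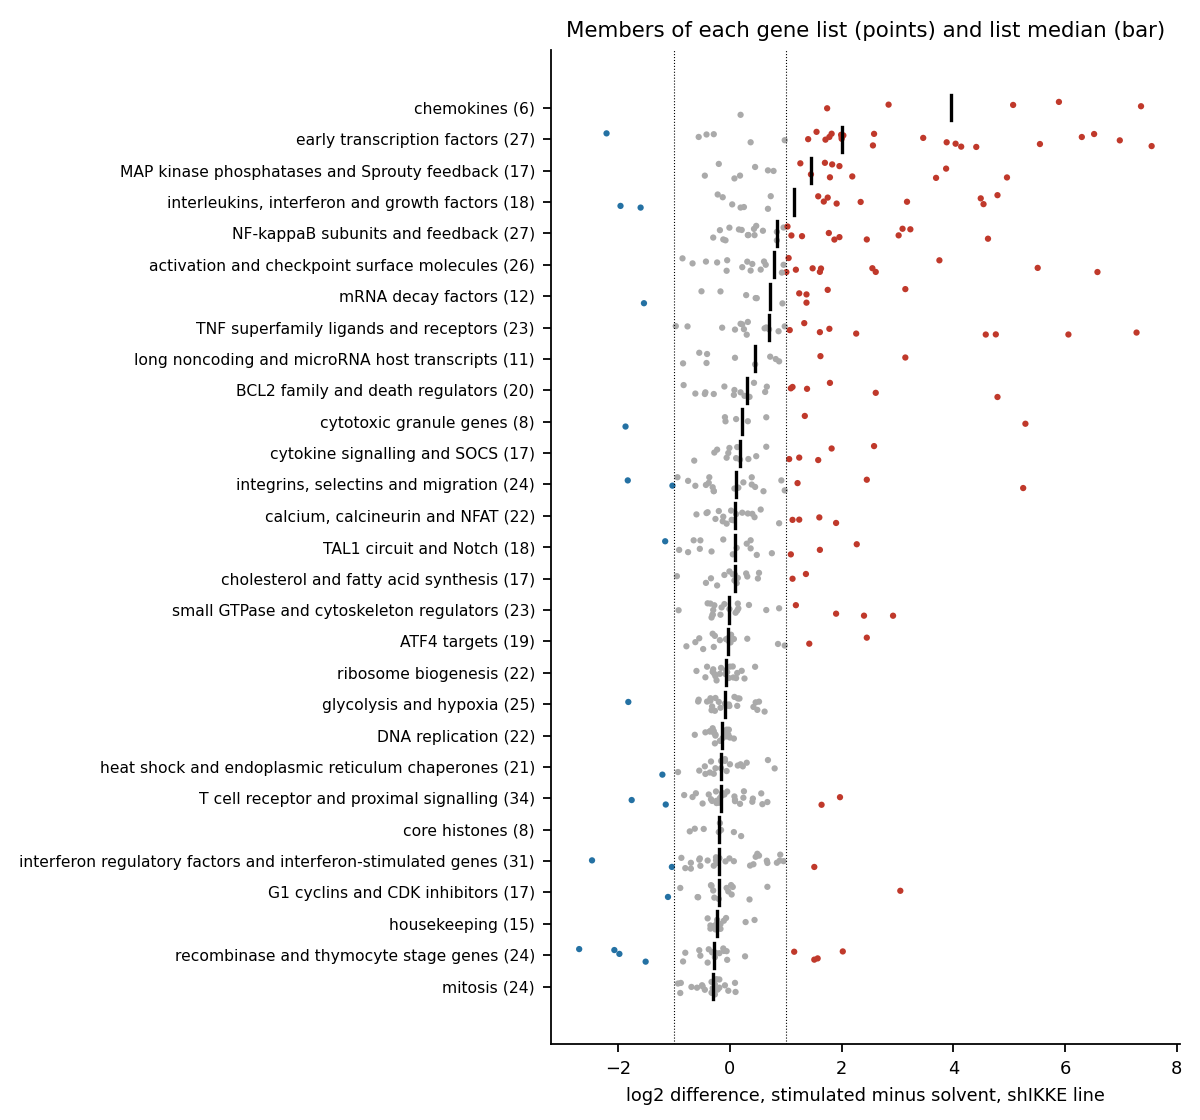
Log2 difference in the shIKKE line for every member past the filter of 29 gene lists, with the number of members in brackets, the list median as a bar and dotted lines at 2-fold. Of the early transcription factors, 21 of 27 lie beyond the 2-fold line to the right, and all 24 mitosis genes lie inside both lines. For chemokines, 3 passed the filter only through stimulated arrays, so their bar is no measure of the family.

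The probe sets of a gene often differed in direction. Of 6798 genes with at least 2 probe sets past the filter, 49.1% had all of them on one side of 0. Where the brightest probe set was at least 2-fold higher (405 genes), 78.5% had all on one side, and where it was at least 2-fold lower (86 genes), 53.5%. The second brightest probe set was itself 2-fold higher in 45.9% of the 405 and 2-fold lower in 26.7% of the 86. Among 6307 genes whose brightest probe set lay within 2-fold, the second was at least 2-fold higher in 8.15% and lower in 3.27%. With both shIKKE arrays past the limit for each probe set, the shares with all on one side were 83.8% for higher and 69.6% for lower genes. All probe sets were at least 2-fold higher for 157 genes and lower for 15. The former included PTPRE, a tyrosine phosphatase, at 327 and 3163, CXXC5 at 159 and 1125, USP27X at 296 and 2028 and TMC6 at 306 and 2019. Bright genes could still disagree: for JADE1 the 3 brighter probe sets lay between 1.77 and 2.13 and the dimmest gave −0.26, and for RCOR1 the brightest gave 1.36 and a dim one −1.18.

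**Figure D4:**
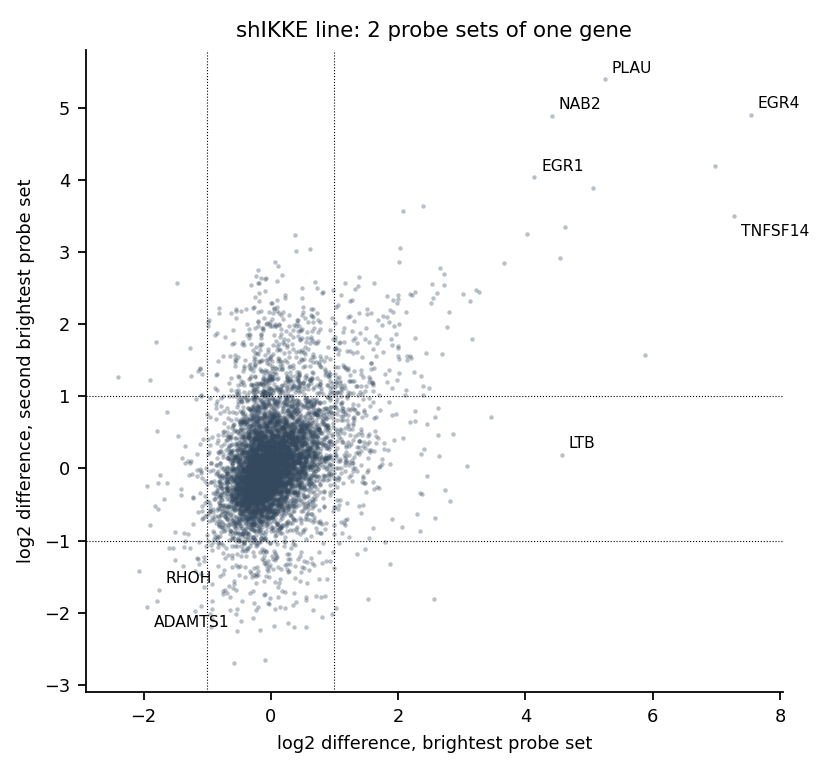
Log2 difference of the second brightest probe set (vertical axis) against that of the brightest (horizontal axis) in the shIKKE line, 1 point per gene for the 6798 genes with several probe sets, with dotted lines at 2-fold. PLAU, NAB2 and EGR1 are high by both, while LTB is high by its bright probe set only.

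On the deposited scale the control line gave a more even split. There, 1039 genes (7.57%) lay 2-fold or more above solvent and 884 (6.44%) lay as far below it. That is 54.0% higher, against 79.4% in the shIKKE line, where quantile normalization gave 59.6%. The control line's share after quantile normalization is not given here. The pairs share no array, each line's response is 1 difference, and the difference between them was not tested. Of the 1417 genes higher in the shIKKE line, 451 (31.8%, and 43.4% of those higher in the control line) were higher in both, 866 lay within 2-fold in the control line and 100 were lower there. Of the 368 lower genes, 106 (28.8%, and 12% of those lower in the control line) were lower in both.

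Early transcription factors had 11 of 27 higher and 4 lower in the control line, with a median of 0.56 against 2.0. EGR3 read 4526 and 4009 there, against 104 and 9316 in the shIKKE line, and JUN read 5059 and 2721 against 1404 and 5615. NR4A1 read 747 and 668 against 109 and 1341. For these 3 genes the solvent signal was lower and the stimulated signal higher in the shIKKE line. Over the list, the solvent signal was lower in the shIKKE line for 23 of 27 genes and the stimulated signal higher for 16, with both true of 13. EGR1 read 9953 and 23200 in the control line, so that its stimulated signal was lower in the shIKKE line, and so was that of NAB2. With the control line's solvent array as the baseline for the stimulated shIKKE array, 12 of the 27 were higher and 3 lower, with a median of 0.83. Ribosome biogenesis genes stood the other way, with 11 of 22 higher in the control line and a median of 1.01, against 0 and −0.07. The solvent signal was lower in the shIKKE line for 0 of these 22. With the control line's solvent array as the baseline for the stimulated shIKKE array, 8 were higher, with a median of 0.9. UTP20, of the small subunit processome, read 851 and 3625 in control cells, against 3178 and 3680 in shIKKE cells, and RRP12 read 320 and 1096 against 1189 and 1145. Other genes differed between the lines to unlike degrees. CRTAM differed by 6.64 in control cells and by 6.58 in shIKKE cells, PDGFA by 4.70 and 4.54, LTB by 4.91 and 4.58 and the GTPase RHOH by −1.78 and −1.76. CCL4 differed by 4.95 and 7.36, TNF by 3.71 and 6.06, LTA by 2.32 and 4.76, CD69 by 3.36 and 5.51 and ICOS by −0.95 and 2.61.

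**Figure D5:**
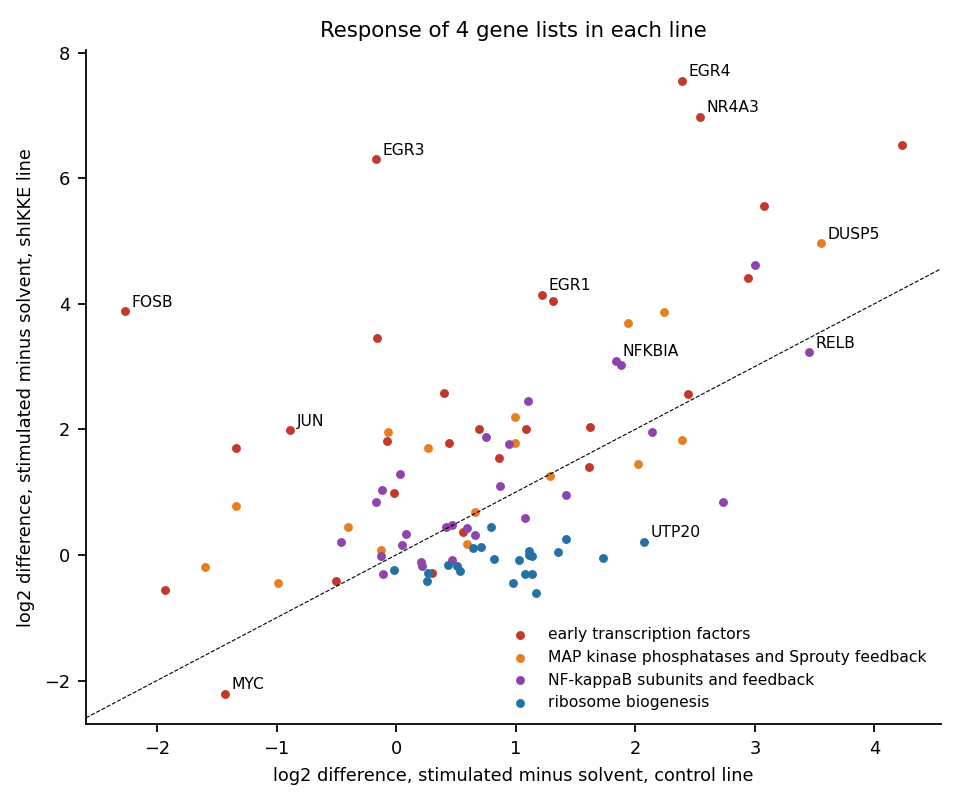
Log2 difference in the shIKKE line (vertical axis) against that in the control line (horizontal axis) for the members of 4 lists, with equal differences along the dashed line. Many early transcription factors lie above the line, and the ribosome biogenesis genes lie near 0 in shIKKE cells but reach 2.07 in control cells.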

How the data were processed

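Total RNA of 4 Jurkat samples was hybridised to 4 single-colour oligonucleotide arrays, 1 per group, with 6 ug of RNA labelled per sample per the labels' protocols. The authors deposited 1 intensity per probe set and array, a linear MAS5 signal per the submitters' processing notes. Detection calls, a genome build and the MAS5 version and scaling target were not given in the sources used here. With 2% trimmed from either end, each array's mean signal was 499.93, so the arrays share a scale, and the number of arrays limits the precision. No sample column was set aside (0 unused), and the 62 array controls entered no gene count.

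Symbols came from the platform annotation, where 1801 probe sets carry several and 11721 none. By gene ID, 41037 of the 41091 single-symbol probe sets were found in RefSeq's GRCh38.p14 genes. Log2 differences were computed here from the deposited intensity after adding 14.1, which is the signals' 25th percentile over all arrays. The probe set brightest by mean log2 over the 4 arrays stood for its gene. A gene counted as changed at 2-fold, with no test. Genes named were the 15 largest increases and decreases, the 10 largest each way among genes whose probe sets were all 2-fold in one direction, the 10 largest each way among genes at or above the 90th percentile on both shIKKE arrays, up to 6 members per list, a fixed set with IKBKE, TBK1 and others, and list members within 2-fold. Other list members named here were chosen after their values were seen. Members, lists and rules were chosen with earlier results of these data known. Promoters came from RefSeq. The labels do not say whether samples came from separate cultures.

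Alternatives covered normalization, pseudocount, filter, probe set choice, threshold and baseline. The counting was tested on simulated data. Tools were Python 3.11.15, numpy 2.4.6, pandas 2.3.3 and matplotlib 3.10.9, and for normalization R 4.3.3 with limma 3.58.1.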

Additional observations from a re-analysis of the deposited data

Results flagged for a closer look

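The count that follows leaves out CSF1R, MPO, CYTOR and MIAT. Of other genes named here, 2 were at least 2-fold higher with stimulation in the shIKKE line and at least 2-fold lower in control cells. With 1 array per group the difference was not tested. FOSB, an AP-1 subunit, differed by 3.88 on the log2 scale in shIKKE cells (7.39 under solvent, 302 stimulated) and by −2.27 in the control line (1364 and 272). CHAC1, which degrades glutathione, differed by 1.42 in the shIKKE line (92.0 and 269) and by −1.22 in the control line (231 and 90.9). Of the genes left out, MPO met the same rule. It differed by 1.94 in the shIKKE line (2.45 and 49.1) and by −1.23 in the control line (62.2 and 18.4). Both shIKKE signals of MPO lay under the limit, so its difference is uncertain. For FOSB the stimulated signals of the lines were close and the solvent signals far apart.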

How the results depend on the processing

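The counts depended on the treatment of dim signals and the share of higher genes on the normalization. The 1417 higher and 368 lower genes (79.4% higher) became 688 lower and 59.6% higher with quantile normalization, and 615 lower and 62.1% higher with cyclic loess. A pseudocount at the median of all signals gave 690 higher and 129 lower (84.2%), and signals raised to the median gave 802 and 196. No filter gave 2200 and 796 (73.4%). A filter on both shIKKE arrays, with the brightest probe set chosen again, gave 490 and 137, and a limit at the 75th percentile gave 364 and 100. The control line's solvent array as baseline gave 890 lower and 61.9% higher. A threshold of 1.5-fold gave 2622 and 1218 (68.3%) and one of 4-fold gave 330 and 26 (92.7%). The share of genes whose probe sets had one direction, 49.1%, was 52.4% where both arrays reached the limit and 51.4% for probe sets without a suffix for shared sequence. Directions turned for the natural killer marker list and E2F2 with the median of the probe sets (−0.14 and 0.34), and with the control line's solvent array as baseline for CD27 (−0.08), FOSB (−2.12), GZMH (0.69) and OSM (0.21). The causes were not tested. Of 120 genes named here at 2-fold, 78 were on the same side of 2-fold under every alternative run. This count leaves out CSF1R, MPO, CYTOR and MIAT, which are also named and differed by at least 2-fold. With signals raised to the limit CSF1R (0.92) and MPO (0.0) were within 2-fold, as was MIAT (0.99) by the median of its probe sets. No paired analysis was possible because each group holds 1 array. Signals near the limit have no detection call here, so folds from them are uncertain.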

Other observations

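Probe sets without a gene symbol in the platform annotation, which are not members of the response described above, were more often higher than those with 1 symbol. Of 5280 such probe sets past the filter, 33.9% were higher by 2-fold or more in shIKKE cells and 2.63% were lower by as much, with a median difference of 0.58. Of the 26218 probe sets with 1 symbol, 11.4% were higher and 3.17% lower, with a median of 0.03. Over 4 bins of level, from the dimmest to the brightest, the share higher without a symbol was 42.6%, 35.4%, 20.0% and 4.41%, and with 1 symbol it was 29.3%, 12.7%, 5.39% and 2.34%. In the control line 32.4% of the probe sets without a symbol were higher, and after quantile normalization the share in the shIKKE line was 24.9%.

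The long noncoding and microRNA host transcripts with a symbol had 2 of 11 higher, CYTOR at 10.2 with solvent and 200 with stimulation and MIAT at 117 and 390. GAS5, a host of small nucleolar RNAs, read 179 and 329 (0.82).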
